A study of Homo sapiens with 8 samples.

Results

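The comparison described here set *HHEX* knockdown directly against *YAP1* and *WWTR1* knockdown in HCT-116, a human colorectal cancer cell line. Its members were 5 of the 8 RNA-seq libraries of the study, all that the labels assign to these knockdowns. They were 3 libraries of cells transfected with an siRNA against *HHEX* (siHHEX 1, 2 and 3) and 2 of cells transfected with siRNAs against *YAP1* and *WWTR1*, the gene of TAZ, together (siYAP/TAZ 1 and 2). The 2 libraries of the control siRNA (siNC) were used as a reference level and entered no test, and the single library of the *TEAD1*, *TEAD2*, *TEAD3* and *TEAD4* knockdown (siTEAD1/2/3/4) entered no test. No other change to the cells is named in the labels, and the control was transfected too, so the siNC level is that of transfected cells. The replicate numbers of the libraries match the numbers of the siRNAs, and where each library had the siRNA of its number, the effect of an siRNA and the spread between cultures cannot be told apart. Nothing in the labels says that the libraries of a group came from separate cultures, and the p-values measure only the spread between these samples.

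The Hippo pathway is a kinase cascade that restrains YAP and TAZ, which are coactivators without a DNA-binding domain of their own. YAP and TAZ reach DNA mainly through the TEAD transcription factors and switch on genes for growth, adhesion and the cytoskeleton. HHEX is a homeodomain transcription factor of endoderm, liver and blood development that is known chiefly as a repressor working with TLE corepressors. The study asked whether HHEX acts together with YAP and TEAD in colorectal cancer cells, and the direct comparison asks where the transcriptomes of the knockdowns differ.

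The sites of the 7 siRNAs are shown because the siRNAs of a gene differ in the part of the messenger RNA they target. Capitals mark the 11 bases that the *YAP1* sites share.
siHHEX-1: gugaucagaggcaagauuu
siHHEX-2: ggauagcucucaauguucg
siHHEX-3: cccacuuaauggaaaggcaaa
siYAP-1: gacaucuuCUGGUCAGAGA
siYAP-2: CUGGUCAGAGAuacuucuu
siTAZ-1: acguugacuuaggaacuuu
siTAZ-2: agguacuuccucaaucaca
All of them are written 5′ to 3′ as the sense strand of the transcript. On GRCh38 the *HHEX* sites lay on the plus strand in exon 4 of 4, at chr10:92694599-92694617 and chr10:92694648-92694666 in the coding sequence and at chr10:92695158-92695178 in the 3′ UTR. The overlapping *YAP1* sites lay in the coding part of exon 2 of 9 on the plus strand, at chr11:102114365-102114383 and chr11:102114373-102114391. The siTAZ-1 site was in the coding part of exon 7 of 7 of *WWTR1* on the minus strand, at chr3:149520887-149520905. The siTAZ-2 site crossed the junction of exon 2 (chr3:149656876-149656889) and exon 3 (chr3:149572996-149573000), also in coding sequence. For siHHEX-1, siHHEX-2, siHHEX-3 and siTAZ-2, the supplementary spelling differed from the transcript by 1 or 2 letters, whereas the spelling in the study's methods had the letters of the transcript, which are printed. The siRNA pairs against YAP and TAZ thus targeted overlapping stretches of *YAP1* and separate stretches of *WWTR1*.

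The authors deposited 1 value per gene and library in FPKM, a measure that divides the fragments of each gene by transcript length and sequencing depth. The values summed to 374103, 365242 and 383423 FPKM in siHHEX 1 to 3 and to 331663 and 336954 FPKM in siYAP/TAZ 1 and 2, against 348610 and 345773 FPKM in siNC. The number of reads is unknown. The spacing of the lowest values put the depth of the 5 libraries at between 0.986 and 1.06 times that of siNC 1. Testing was limited to genes reaching 1 FPKM in 2 or more of the 5 libraries, which kept 10578 of 20030 genes. *NPFF*, with its second highest value at 1.0007 FPKM, was just inside this limit, and *AMOT*, a gene of the Hippo pathway with 0.417, 0.301 and 0.467 FPKM in siHHEX and 0.9999 and 1.25 FPKM in siYAP/TAZ, was just outside.

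Epithelial markers were present in every library, with *KRT8* the most abundant, and 6 of the 10 markers listed for the line reached 1 FPKM in each library. *EPCAM* was at 131, 139 and 116 FPKM in siHHEX and at 148 and 157 FPKM in siYAP/TAZ. Of the intestinal markers, *CDX1* and *VIL1* were at or near 0 in all of these libraries. *CDX2* was expressed, at 5.81, 5.64 and 6.24 FPKM in siHHEX and at 4.99 and 3.91 FPKM in siYAP/TAZ. The 15 markers of fibroblasts, endothelium and blood cells summed to between 0.821 and 3.09 FPKM in the 5 libraries, and *COL1A1* was the most abundant of these. The same sum was 1.23 and 0.9965 FPKM in siNC.

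*HHEX* was lower in siHHEX than in siYAP/TAZ, and it was also below the siNC level in siYAP/TAZ. The siHHEX libraries had 3.25, 3.54 and 1.85 FPKM of *HHEX*, the siYAP/TAZ libraries had 4.80 and 7.12 FPKM, and the siNC libraries had 8.60 and 9.06 FPKM. The groups did not overlap, and siHHEX 3 was the lowest library. The log2 difference between siHHEX and siYAP/TAZ was −0.85 ± 0.23 (SE, n = 3 and 2, adjusted p = 0.0273 with limma), on the scale log2(FPKM + 1) used for all differences. The added 1 shrinks the differences of weakly expressed genes. In bulk RNA, fewer cells of a type and less RNA per cell cannot be told apart, here and in the results that follow.

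*YAP1* did not separate the knockdowns. Its level was 5.77, 17.4 and 6.93 FPKM in siHHEX and 6.90 and 8.39 FPKM in siYAP/TAZ, against 20.2 and 19.7 FPKM in siNC. The groups overlapped, because siHHEX 1 and 3 were as low as the libraries in which *YAP1* was targeted, whereas siHHEX 2 was close to siNC. The log2 difference was 0.21 (95% interval −0.58 to 1.002, adjusted p = 0.663), and without siHHEX 2 it was −0.23.

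*WWTR1* was the target gene that separated the knockdowns most. It was at 5.12, 6.12 and 8.55 FPKM in siHHEX, at 2.64 and 2.58 FPKM in siYAP/TAZ and at 6.80 and 6.72 FPKM in siNC. All siHHEX libraries were above both siYAP/TAZ libraries and lay on either side of siNC. The mean was 2.53-fold higher in siHHEX, with a log2 difference of 1.05 ± 0.20 (adjusted p = 0.0128).

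**Figure D1:**
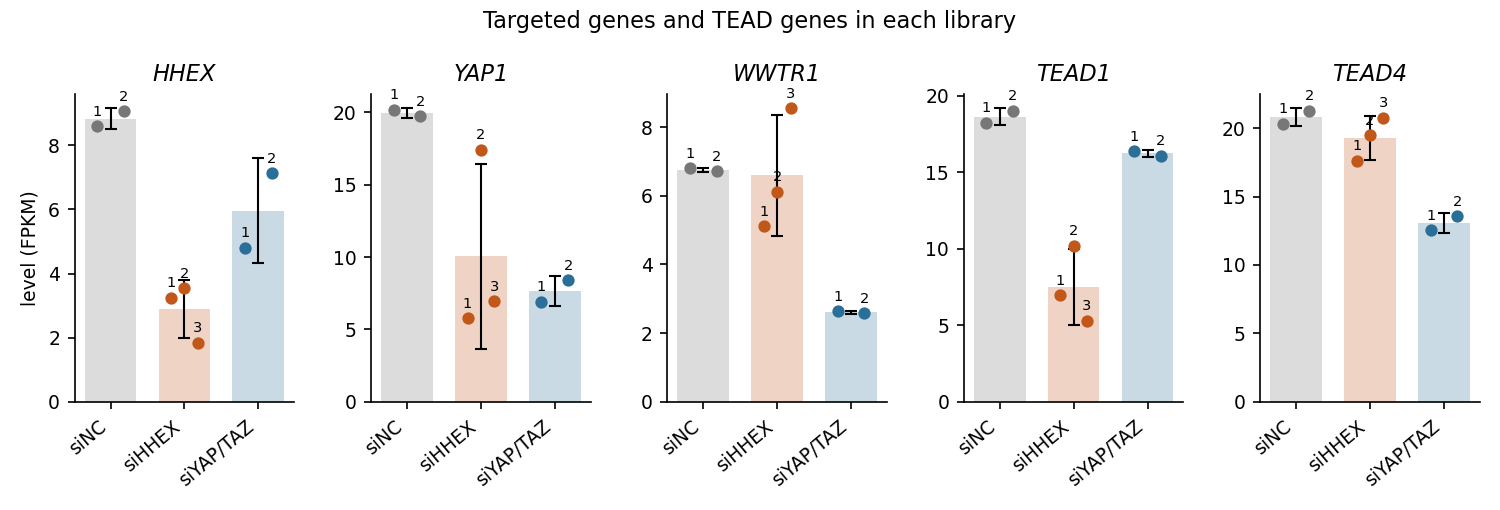
Level in FPKM (y axis) of the targeted genes and of TEAD1 and TEAD4 in the siNC, siHHEX and siYAP/TAZ libraries (points, numbered by replicate, with bars at the mean and error bars of 1 SD). YAP1 in siHHEX 2 stands at 17.4 FPKM, apart from siHHEX 1 and 3, and TEAD1 is lower in all siHHEX libraries than in both siYAP/TAZ libraries.

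Among the TEAD genes, *TEAD1* and *TEAD4* differed in opposite directions. *TEAD1* was at 6.99, 10.2 and 5.30 FPKM in siHHEX and at 16.4 and 16.1 FPKM in siYAP/TAZ, with siNC at 18.3 and 19.0 FPKM. It was 2.17-fold higher in siYAP/TAZ, a log2 difference of −1.06 ± 0.23 (adjusted p = 0.0150). *TEAD4*, in contrast, was at 17.6, 19.5 and 20.8 FPKM in siHHEX and at 12.5 and 13.6 FPKM in siYAP/TAZ, with siNC at 20.3 and 21.3 FPKM. Its log2 difference was 0.53 ± 0.15 (adjusted p = 0.0304). In both genes the groups did not overlap. *TEAD2* and *TEAD3* did not pass the test, with log2 differences of 0.25 (adjusted p = 0.258) and 0.17 (adjusted p = 0.413). After a correction for GC content and transcript length, described below, the difference of *WWTR1* was 1.41 (adjusted p = 0.0273), that of *TEAD1* was −0.67 (adjusted p = 0.0837), that of *TEAD4* was 0.10 (adjusted p = 0.693) and that of *HHEX* was −0.86 (adjusted p = 0.0750).

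Across all tested genes, 1022 (9.66%) were higher in siHHEX than in siYAP/TAZ and 2010 (19%) were lower, at an adjusted p under 0.05. With a change over 2-fold on the log2(FPKM + 1) scale and an unadjusted p under 0.05, 25 genes (0.236%) were higher and 137 (1.3%) were lower, and with 0.1 added in place of 1 these counts were 48 and 554. All siHHEX values were above both siYAP/TAZ values in 2445 genes (23.1%) and below them in 4005 genes (37.9%), so that a pair of groups without overlap was common. The median log2 difference was −0.13. When each library was instead scaled to the same median, the median difference moved by 0.16 and the split turned to 1828 genes higher and 934 lower. List counts under this scaling, given below, stand beside this split of the 10578 genes. The counts at an adjusted p rested on siYAP/TAZ 2, without which limma called no gene in either direction at an adjusted p under 0.05, with 948 higher and 1820 lower at an unadjusted p under 0.05. The counts over 2-fold were 24 and 127 without siYAP/TAZ 2 and 102 and 307 without siYAP/TAZ 1. Without the filter on low values, limma called 0 genes higher and 1 lower among 16023, with 1639 higher and 3635 lower at an unadjusted p under 0.05.

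The difference between the knockdowns followed the base composition of the transcripts. Over these genes, which share the same 5 libraries and do not count as replicates, Spearman's rank correlation of the log2 difference was 0.710 with GC content and −0.417 with transcript length. Genes higher in siHHEX had a median GC content of 59.4%, a median transcript of 1806.5 bases and a median siNC level of 32.6 FPKM. Genes lower in siHHEX had medians of 40.5% GC, 4800 bases and 5.19 FPKM, and genes not called had 50.7% GC, 3137 bases and 7.08 FPKM. Below 40% GC, 51.5% of the 1748 genes were lower in siHHEX, and above 60% GC, 25.99% of the 1789 genes were higher.

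The trend was that of the siHHEX libraries. In genes with up to 40% GC the median log2 difference from siNC was −0.45 in siHHEX and 0.09 in siYAP/TAZ, and in genes above 60% GC it was 0.39 in siHHEX and 0.09 in siYAP/TAZ. For single libraries, Spearman's rank correlation between the difference from siNC and GC content was 0.681, 0.601 and 0.759 in siHHEX 1 to 3, and 0.0596 and −0.0523 in siYAP/TAZ 1 and 2. Fitted trends of GC content and length were therefore taken off each library, for the 10508 genes with both values. After this correction, 59 genes (0.561%) were higher and 181 (1.72%) were lower in siHHEX. Of the original calls, 50 of 1022 and 119 of 2010 were called again. Corrected values are given beside the main results below, and corrected counts of gene lists stand beside these shares of 0.561% and 1.72%. What produced the trend was not tested.

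**Figure D2:**
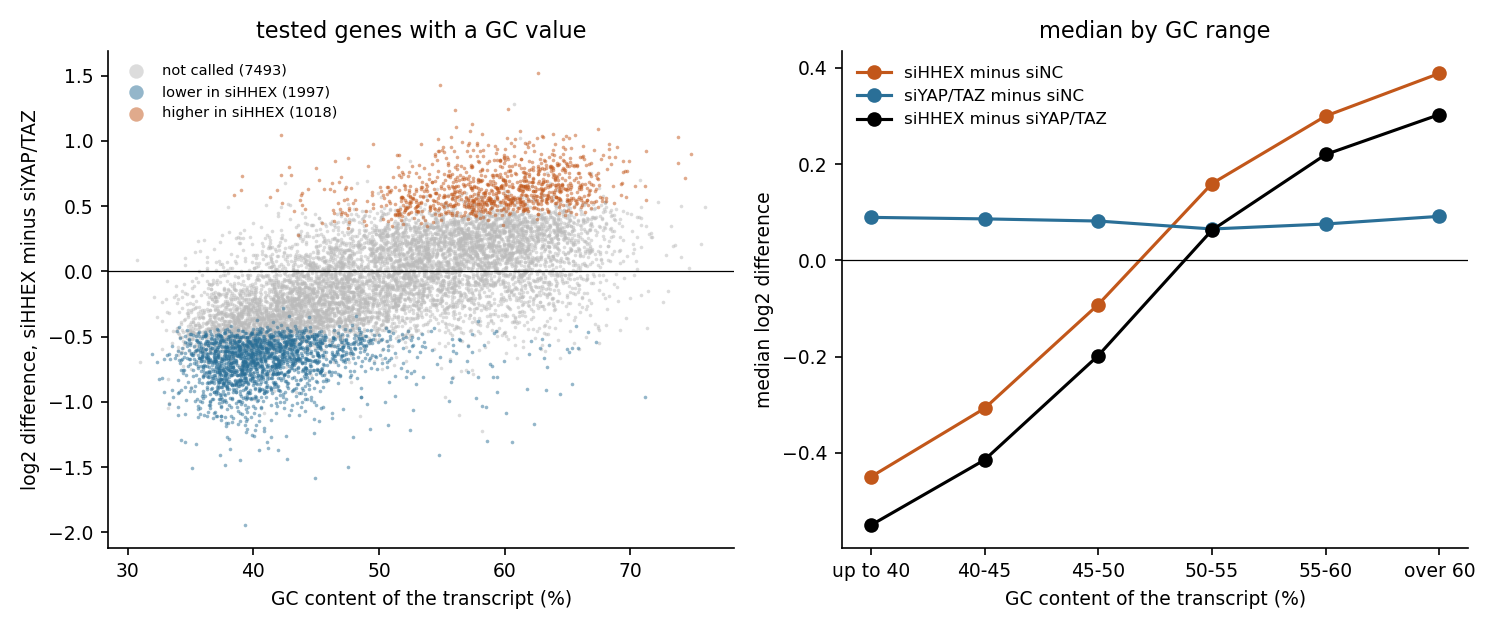
Left, log2 difference between siHHEX and siYAP/TAZ (y axis) against the GC content of the transcript in percent (x axis), 1 point per tested gene, colored by the call at an adjusted p under 0.05. Right, median log2 difference in each range of GC content, in which siHHEX against siNC climbs from −0.45 to 0.39 while siYAP/TAZ against siNC stays near 0.09.

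The genes with the largest excess in siHHEX over siYAP/TAZ included a cytokine receptor, an amino acid transporter and a mitochondrial enzyme. *TNFRSF12A*, the receptor of the cytokine TWEAK, had the largest difference. It was at 246, 239 and 318 FPKM in siHHEX, at 92.1 and 91.8 FPKM in siYAP/TAZ and at 252 and 271 FPKM in siNC. The siHHEX libraries were at the control level and the siYAP/TAZ libraries were well below it. The mean was 2.91-fold higher in siHHEX, with a log2 difference of 1.52 ± 0.15 (adjusted p = 0.00715), and the difference was 0.99 after the correction (adjusted p = 0.0163).

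Several of these genes lay above siNC in siHHEX and below it in siYAP/TAZ. *SHMT2*, the mitochondrial enzyme that takes a carbon unit from serine, was at 105, 91.7 and 105 FPKM in siHHEX, at 41.6 and 50.8 FPKM in siYAP/TAZ and at 63.0 and 66.8 FPKM in siNC. *PAM16*, a subunit of the motor that imports proteins into mitochondria, was at 91.1, 75.9 and 82.7 FPKM in siHHEX, at 33.7 and 35.3 FPKM in siYAP/TAZ and at 60.9 and 54.8 FPKM in siNC. The log2 differences were 1.11 for *SHMT2* and 1.24 for *PAM16*, and both passed the test after the correction, at 0.79 (adjusted p = 0.0287) and 0.67 (adjusted p = 0.0435). *ATP6V0B*, a subunit of the proton pump of acidic organelles, had a log2 difference of 1.06 and of 0.59 after the correction (adjusted p = 0.0467), also with siNC between the groups.

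*SLC7A5*, the large neutral amino acid transporter, was at 193, 157 and 151 FPKM in siHHEX, at 94.3 and 64.9 FPKM in siYAP/TAZ and at 158 and 169 FPKM in siNC. Here siHHEX was at the control level, and the log2 difference of 1.08 became 0.80 after the correction (adjusted p = 0.0535). The other genes among the 12 with the largest excess were *TUSC2*, *SMIM37*, *LRP3*, *MYEOV*, *SLC25A22*, *BOP1* and *EIF3CL*, with log2 differences from 1.05 (*BOP1* and *SLC25A22*) to 1.43 (*EIF3CL*). *EIF3CL* is nearly identical to *EIF3C*, so its fragments may have been split between the copies, and its value is uncertain. *TUSC2*, *LRP3* and *BOP1*, a factor of ribosome assembly, passed the test after the correction, at 0.88, 0.77 and 0.64. After the correction, 3 genes were over 2-fold higher in siHHEX at an adjusted p under 0.05, *WWTR1*, *F3* and *C15orf61*. *C15orf61* was at 9.55, 8.39 and 11.96 FPKM in siHHEX and at 5.29 and 5.85 FPKM in siYAP/TAZ.

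**Figure D3:**
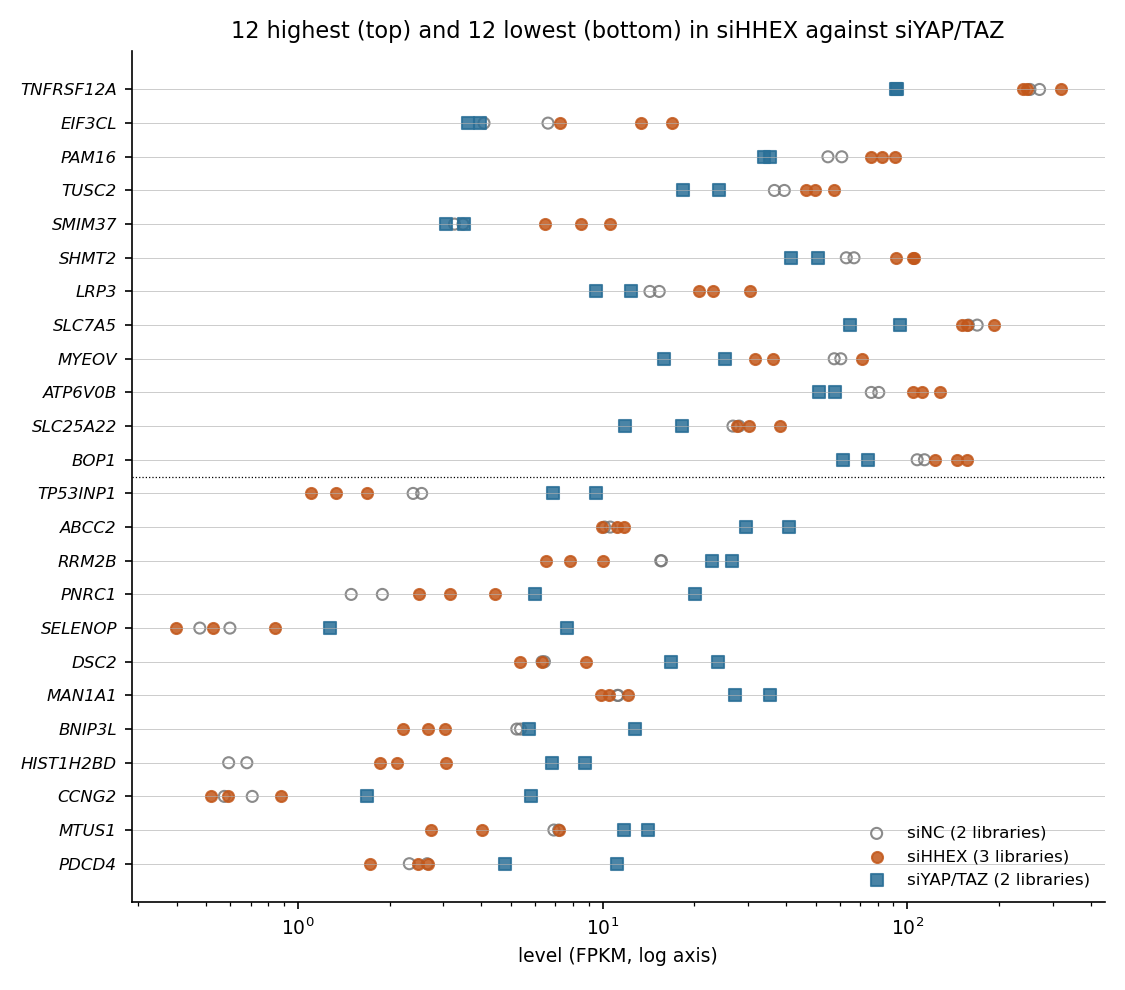
Level in FPKM on a log axis (x axis) of the 12 genes with the highest (top) and the 12 with the lowest (bottom) log2 difference between siHHEX and siYAP/TAZ among genes with an adjusted p under 0.05 and no overlap, 1 point per library, with siNC as open circles. TNFRSF12A in siHHEX sits with siNC at 239 FPKM or more, and TP53INP1 in siYAP/TAZ stands at 6.86 and 9.54 FPKM, above siNC and siHHEX.

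Among the genes lower in siHHEX were a stress gene, an export pump and a nucleotide enzyme. Of the 181 genes lower after the correction, siNC was nearer to siHHEX in 156 and nearer to siYAP/TAZ in 25, by their levels as deposited. Of the 2010 genes lower before the correction, it was nearer to siHHEX in 780 and nearer to siYAP/TAZ in 1230. Of the 59 genes higher, siNC was nearer to siHHEX in 30 and nearer to siYAP/TAZ in 29. Of the 1022 higher before the correction these counts were 323 and 699. The same counts over all tested genes were not taken. The siNC levels were not corrected, so these counts describe no trait particular to the called genes. The lowest log2 difference of all was that of *TP53INP1*, a p53 target that acts in cell death and autophagy. It was at 1.10, 1.69 and 1.33 FPKM in siHHEX, at 6.86 and 9.54 FPKM in siYAP/TAZ and at 2.55 and 2.39 FPKM in siNC. The siYAP/TAZ libraries were above siNC and the siHHEX libraries were below it. The mean was 5.97-fold higher in siYAP/TAZ, a log2 difference of −1.95 ± 0.19 (adjusted p = 0.00715) and of −1.49 after the correction (adjusted p = 0.0163).

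*ABCC2*, an export pump for conjugated bile pigments and drugs, was at 11.1, 9.94 and 11.7 FPKM in siHHEX, at 29.6 and 40.9 FPKM in siYAP/TAZ and at 10.1 and 10.6 FPKM in siNC. *MAN1A1*, a mannosidase that trims glycans in the Golgi, was at 10.5, 12.1 and 9.89 FPKM in siHHEX, at 27.2 and 35.5 FPKM in siYAP/TAZ and at 11.2 FPKM in both siNC libraries. In both genes siHHEX stayed at the control level and siYAP/TAZ was raised, with log2 differences of −1.59 and −1.44 that were −1.32 and −1.10 after the correction (adjusted p = 0.0248 for each). *RRM2B*, the p53-induced subunit of ribonucleotide reductase, was at 7.79, 10.05 and 6.51 FPKM in siHHEX, at 22.9 and 26.5 FPKM in siYAP/TAZ and at 15.6 and 15.5 FPKM in siNC, a log2 difference of −1.51 and of −1.02 after the correction (adjusted p = 0.0248).

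In other genes of this group the siYAP/TAZ libraries differed from each other. *PNRC1*, a nuclear receptor coregulator, was at 3.15, 4.44 and 2.50 FPKM in siHHEX and at 6.002 and 20.05 FPKM in siYAP/TAZ. *SELENOP*, the secreted selenium carrier, was at 0.398, 0.526 and 0.845 FPKM in siHHEX and at 1.27 and 7.61 FPKM in siYAP/TAZ, and the cyclin gene *CCNG2* was at 0.519, 0.591 and 0.878 FPKM in siHHEX and at 1.68 and 5.84 FPKM in siYAP/TAZ. The high siYAP/TAZ level of these 3 genes was that of siYAP/TAZ 2, and none of them passed the test after the correction, with adjusted p values of 0.0743, 0.152 and 0.140. *SELENOP* and *CCNG2* were under 1 FPKM in all siHHEX libraries and passed the filter only through siYAP/TAZ. For these genes the filter set the direction of the difference, so their place among the lowest is no evidence of a change. The desmosomal cadherin *DSC2*, the mitophagy receptor *BNIP3L*, *MTUS1* and *PDCD4*, a translation inhibitor, completed the 12 lowest together with the histone gene *HIST1H2BD*. After the correction *DSC2*, *BNIP3L*, *MTUS1* and *PDCD4* were at −0.92, −0.99, −0.98 and −0.96. None of them passed the test there, with adjusted p values of 0.081, 0.088, 0.078 and 0.082.

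The 10 lowest genes after the correction included 3 histone genes. *HIST1H2BD* was at 2.12, 1.85 and 3.05 FPKM in siHHEX, at 6.83 and 8.78 FPKM in siYAP/TAZ and at 0.680 and 0.593 FPKM in siNC. Both knockdowns were thus above the control, siYAP/TAZ more so, and the log2 difference was −1.41, or −1.88 after the correction (adjusted p = 0.00531). *HIST1H2AC* and *HIST1H3E* had corrected differences of −1.85 and −1.52. These genes belong to families of near-identical copies, whose fragments the counting could split. *HIST1H3E*, at 0.531, 0.790 and 0.521 FPKM in siHHEX and at 1.47 and 3.04 FPKM in siYAP/TAZ, passed the filter only through siYAP/TAZ. The direction of its difference was therefore set by the filter and is no evidence of a change. *LY6D*, a surface protein of stratified epithelium, was at 1.52, 2.08 and 2.98 FPKM in siHHEX, at 5.36 and 8.52 FPKM in siYAP/TAZ and at 0.473 and 0.936 FPKM in siNC, with a corrected difference of −1.85. *TM7SF2*, a sterol reductase, was at 8.33, 6.98 and 11.6 FPKM in siHHEX, at 16.3 and 26.9 FPKM in siYAP/TAZ and at 2.38 and 3.62 FPKM in siNC. *HOXA6*, a homeobox gene, was lower than siNC in siHHEX and higher in siYAP/TAZ, at 0.964, 1.08 and 1.19 FPKM against 3.24 and 3.58 FPKM, with siNC at 2.53 and 2.35 FPKM. *CYSRT1* and *SCX* were also among the 10 lowest after the correction, at −1.44 and −1.49, and *SCX*, which lies within an intron of *BOP1* so that its fragments may be shared, was at or under 1.73 FPKM in every library. *SCX* was under 1 FPKM in all siHHEX libraries and passed the filter only through siYAP/TAZ. The filter thus set the direction of its difference, which is no evidence of a change.

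Most YAP/TEAD target genes were below the siNC level in both knockdowns, without a test of either against siNC. Of 40 genes on this list, 29 were tested. The mean was below siNC in 27 of them in siHHEX and in 26 in siYAP/TAZ, and their median log2 difference from siNC was −1.01 in siHHEX and −0.91 in siYAP/TAZ, 2 medians that share the siNC libraries. Set directly against each other, 6 of the 29 were higher and 1 was lower in siHHEX, beside 9.66% higher and 19% lower over all tested genes. Their median log2 difference was −0.08, with −0.13 over all. After the correction limma called 1 higher and none lower, with 4 higher and 4 lower at an unadjusted p under 0.05, and the median was −0.08 beside −0.10 over all. The sign of the list's median was not stable, since it was 0.07 when each library was scaled to the same median.

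*F3*, which encodes tissue factor, had the largest excess in siHHEX. It was at 20.3, 17.9 and 20.6 FPKM in siHHEX, at 11.3 and 10.4 FPKM in siYAP/TAZ and at 79.6 and 77.7 FPKM in siNC. All 5 libraries were far below siNC, and the siYAP/TAZ libraries were the lower ones. The log2 difference was 0.80 ± 0.15 (adjusted p = 0.0127), and *F3* was the target that passed the test after the correction, at 1.01 (adjusted p = 0.0265). *AMOTL2*, an angiomotin that binds YAP, was at 3.65, 3.93 and 3.44 FPKM in siHHEX, at 1.72 and 2.24 FPKM in siYAP/TAZ and at 14.3 and 14.6 FPKM in siNC, with a log2 difference of 0.65 (adjusted p = 0.0201) and of 0.47 after the correction (adjusted p = 0.127). *AJUBA*, a LIM protein that binds the LATS kinases, was at 9.22, 9.85 and 9.99 FPKM in siHHEX, at 5.89 and 6.598 FPKM in siYAP/TAZ and at 14.8 and 16.4 FPKM in siNC, a log2 difference of 0.56 and of 0.46 after the correction (adjusted p = 0.0954). *FJX1*, *GADD45B* and *TGM2* had differences of 0.72, 0.51 and 0.47 that were 0.32, 0.09 and 0.33 after the correction, where none of them passed the test, and the target lower in siHHEX was *TEAD1*.

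Other targets did not pass the test between the knockdowns. *CYR61* was at 3.38, 3.07 and 4.18 FPKM in siHHEX, at 2.00 and 3.37 FPKM in siYAP/TAZ and at 9.83 and 10.6 FPKM in siNC, so the groups overlapped below the control. Its log2 difference was 0.32 (95% interval −0.12 to 0.76). The receptor kinase gene *AXL* was at 3.98, 10.5 and 4.88 FPKM in siHHEX and at 5.23 and 6.48 FPKM in siYAP/TAZ, with siNC at 18.9 FPKM in both libraries. The high library was again siHHEX 2, in which *YAP1* was high, and the log2 difference of *AXL* was 0.03 (95% interval −0.66 to 0.71). *CCND1*, the gene of cyclin D1, was at 119, 147 and 97.6 FPKM in siHHEX, at 159 and 101 FPKM in siYAP/TAZ and at 420 and 441 FPKM in siNC, with a log2 difference of −0.08 (95% interval −0.56 to 0.40). Intervals of this width do not exclude moderate differences in either direction.

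Of the 11 targets that were not tested, *CTGF* was at 0.0932, 0.162 and 0.241 FPKM in siHHEX and at 0.209 and 0.0794 FPKM in siYAP/TAZ, with siNC at 1.62 and 1.76 FPKM. The groups overlapped far below the control. *ANKRD1* was listed at 0 in all of these libraries.

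**Figure D4:**
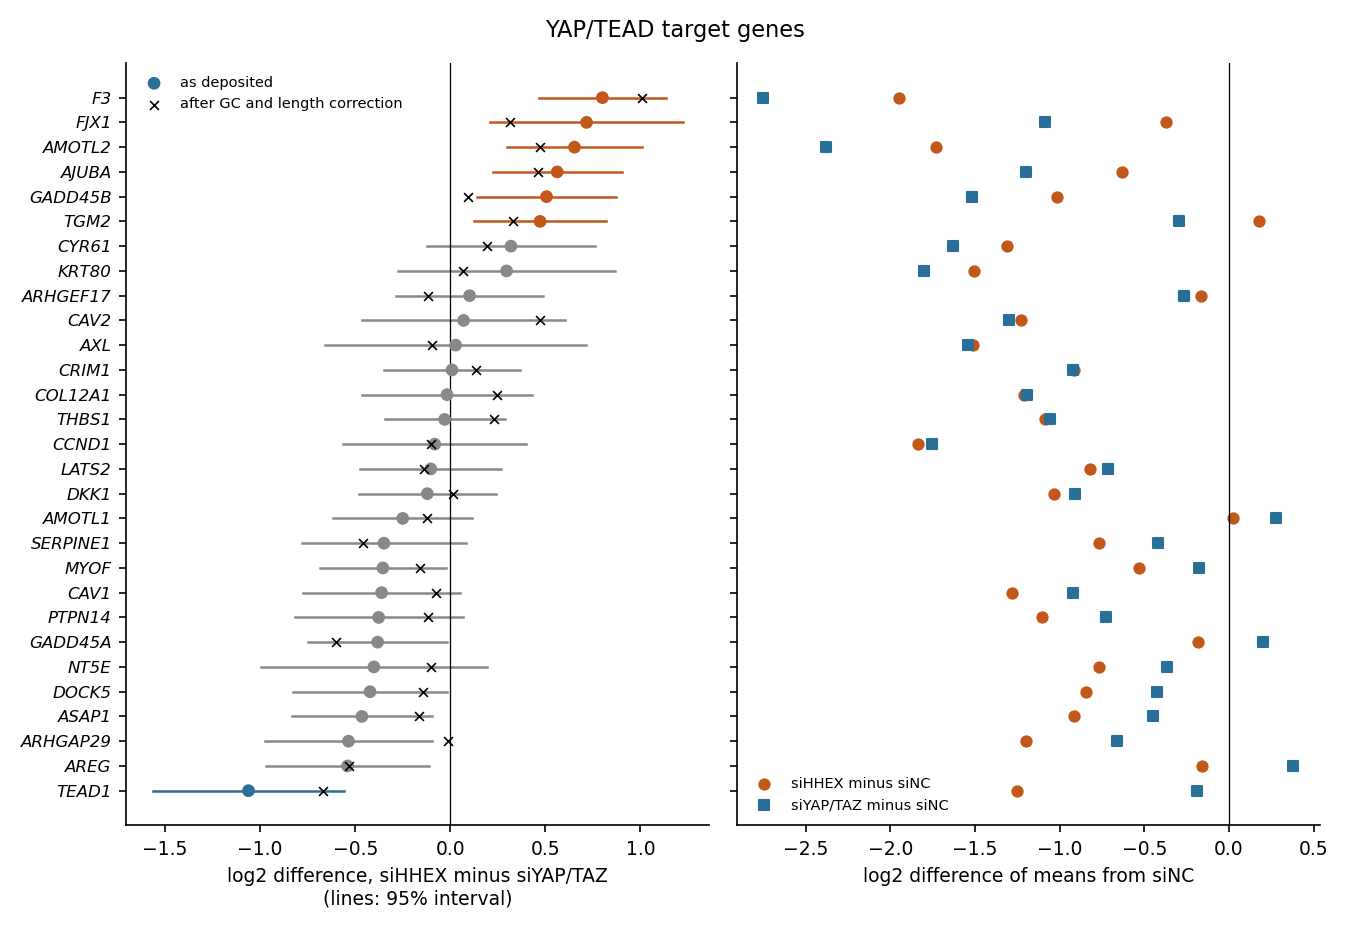
Left, log2 difference between siHHEX and siYAP/TAZ (x axis) of the 29 tested YAP/TEAD target genes, with lines for the 95% interval, crosses for the value after the correction, and color for the calls (orange higher, blue lower, grey not called). Right, difference of each knockdown's mean from the siNC mean, in which most targets lie left of 0 in both knockdowns and F3, AMOTL2 and CCND1 are among the farthest.

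Of 23 tested upstream genes of the Hippo pathway, 2 were higher and 9 were lower in siHHEX, beside 9.66% higher and 19% lower over all tested genes. The median log2 difference was −0.38 and was −0.12 after the correction. With each library scaled to the same median, 4 were higher and 4 lower, beside 1828 and 934 of the 10578 tested genes. *FAT1*, an atypical cadherin at the top of the pathway, was at 26.7, 36.1 and 28.2 FPKM in siHHEX, at 69.4 and 64.5 FPKM in siYAP/TAZ and at 42.1 and 48.1 FPKM in siNC. It thus lay below siNC in siHHEX and above it in siYAP/TAZ, with a log2 difference of −1.13 ± 0.16 (adjusted p = 0.0106), and it was the 1 gene of the list that passed the test after the correction, at −0.86 (adjusted p = 0.0296). The kinase gene *TAOK1* and *STRN3*, a subunit of the phosphatase complex that opposes the Hippo kinases, had differences of −0.97 and −0.88, and the polarity gene *SCRIB* had one of 0.57. These were −0.47, −0.51 and 0.30 after the correction, and none of the 3 passed the test. The tested genes around HHEX itself gave no call other than *HHEX*. Of 12, none was higher and 1 was lower, beside 9.66% higher and 19% lower over all tested genes. With each library scaled to the same median 3 were higher and none was lower, beside 1828 and 934 of 10578. The corepressor gene *TLE1* had a log2 difference of −0.01 (95% interval −0.36 to 0.33), *AES*, a short member of the TLE family, had one of 0.38 (adjusted p = 0.104), and *VEGFA*, a gene known to be repressed by HHEX in other cells, was at 11.1, 8.94 and 9.54 FPKM in siHHEX and at 7.29 and 6.34 FPKM in siYAP/TAZ (adjusted p = 0.0532).

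The keratin genes *KRT8* and *KRT18* were higher in siHHEX. *KRT8* was at 1593, 1722 and 1757 FPKM in siHHEX, at 898 and 897 FPKM in siYAP/TAZ and at 1590.5 and 1707 FPKM in siNC, and its partner *KRT18* was at 718, 722 and 797 FPKM in siHHEX, at 376 and 404 FPKM in siYAP/TAZ and at 900 and 917 FPKM in siNC. The siYAP/TAZ libraries were low for both, and siHHEX was near the control for *KRT8* and below it for *KRT18*. The log2 differences were 0.91 and 0.93, and both passed the test after the correction, at 0.51 (adjusted p = 0.0441) and 0.51 (adjusted p = 0.0435). *KRT19*, another keratin of simple epithelium, was at 662, 847 and 975 FPKM in siHHEX, at 590 and 505 FPKM in siYAP/TAZ and at 696 and 718 FPKM in siNC, and its difference of 0.58 (adjusted p = 0.0272) was 0.11 after the correction (adjusted p = 0.704). *KRT23* went the other way, at 3.04, 4.76 and 3.42 FPKM in siHHEX and at 12.4 and 7.43 FPKM in siYAP/TAZ, with siNC at 3.22 and 3.06 FPKM and a difference of −1.18, or −1.32 after the correction (adjusted p = 0.0349). Over the 23 tested genes of epithelial junctions and keratins, 5 were higher and 5 lower, beside 9.66% higher and 19% lower over all tested genes. After the correction 2 were higher and 2 lower. With each library scaled to the same median, 7 were higher and 3 lower, beside 1828 and 934 of the 10578 tested genes.

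Genes of caveolae, actin and focal adhesion were called higher in 10 and lower in 2 of 35 cases, beside 9.66% higher and 19% lower over all tested genes. Their median was 0.07, and after the correction none was higher and 2 were lower. *ANXA1*, the phospholipid-binding annexin A1, was at 162, 150 and 143 FPKM in siHHEX, at 287 and 293 FPKM in siYAP/TAZ and at 186 and 168 FPKM in siNC, with a corrected difference of −0.74 (adjusted p = 0.0265). The other gene lower after the correction was *TPM1*, at −0.71 (adjusted p = 0.0466), which was named after its value was seen. *CAVIN1*, a coat protein of caveolae, had a difference of 0.78 that was 0.49 after the correction (adjusted p = 0.140). Of 10 tested AP-1 genes, 2 were higher and none was lower, beside 9.66% higher and 19% lower over all tested genes. After the correction none was higher and 1 was lower. The latter was *JUNB*, named after its value was seen, at −0.71 (adjusted p = 0.0435). *FOSL1*, which encodes FRA1, was at 79.9, 82.6 and 104 FPKM in siHHEX, at 57.8 and 34.5 FPKM in siYAP/TAZ and at 148 and 147 FPKM in siNC. Both knockdowns were below the control, siYAP/TAZ more so, with a log2 difference of 0.97 (adjusted p = 0.0161) and of 0.56 after the correction (adjusted p = 0.141).

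Of 26 tested p53 targets, 1 was higher and 11 were lower in siHHEX, beside 9.66% higher and 19% lower over all tested genes, with a median log2 difference of −0.40. After the correction none was higher and 4 were lower, where 0.561% of all genes were higher and 1.72% lower, and the median was −0.48 beside −0.10 over all. Besides *TP53INP1* and *RRM2B*, the genes lower after the correction were *BTG2*, an antiproliferative gene, and *TP53I3*, both named after their values were seen. *BTG2* was at 19.6, 14.8 and 16.2 FPKM in siHHEX, at 28.9 and 41.4 FPKM in siYAP/TAZ and at 13.4 and 12.3 FPKM in siNC. *TP53I3*, an oxidoreductase, was at 4.41, 3.81 and 6.94 FPKM in siHHEX, at 8.16 and 10.7 FPKM in siYAP/TAZ and at 2.17 and 2.30 FPKM in siNC. In these genes siNC was the lowest group. *MDM2*, the ubiquitin ligase that restrains p53, was at 10.99, 12.7 and 14.6 FPKM in siHHEX, at 34.0 and 24.5 FPKM in siYAP/TAZ and at 24.5 and 24.01 FPKM in siNC, with a difference of −1.13 that was −0.65 after the correction (adjusted p = 0.109). *CDKN1A*, the p21 gene, also named after its values were seen, did not pass the test, at 107, 97.7 and 141 FPKM in siHHEX and 150 and 117 FPKM in siYAP/TAZ. With each library scaled to the same median, 1 p53 target was higher and 8 were lower, beside 1828 and 934 of 10578 tested genes. Their median was then −0.23. Without siHHEX 1, 0 of the p53 targets were higher and 6 were lower, beside 357 and 460 of 10578. The median log2 difference of the p53 targets was −0.40 without siYAP/TAZ 1 and −0.41 without siYAP/TAZ 2. Over all tested genes these medians were −0.14 and −0.11. The calls over all genes rested on siYAP/TAZ 2, and so did the calls of this list.

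Among genes of cell survival and the cell cycle, *BCL2L1* and *PLK1* stayed higher in siHHEX after the correction. *BCL2L1*, which encodes the survival protein BCL-XL, was at 70.8, 83.4 and 78.1 FPKM in siHHEX, at 39.6 and 37.2 FPKM in siYAP/TAZ and at 75.9 and 77.9 FPKM in siNC. It was at the control level in siHHEX and low in siYAP/TAZ, with a log2 difference of 0.99 ± 0.14 (adjusted p = 0.00959) and of 0.70 after the correction (adjusted p = 0.0435). Of 12 tested BCL2 family genes, 5 were higher and none was lower, beside 9.66% higher and 19% lower over all tested genes. After the correction *BCL2L1* was the 1 that was called, where 0.561% of all genes were higher and 1.72% lower. *PLK1*, a kinase of mitotic entry, was at 119, 105 and 116 FPKM in siHHEX, at 62.7 and 52.1 FPKM in siYAP/TAZ and at 99.1 and 109 FPKM in siNC, with a corrected difference of 0.64 (adjusted p = 0.0429). *TOP2A*, the topoisomerase of dividing cells, went the other way at 18.3, 18.5 and 10.9 FPKM against 29.7 and 34.0 FPKM, and its difference of −0.99 was −0.53 after the correction (adjusted p = 0.128). Of 36 mitotic genes 4 were higher and 9 lower, and of 37 replication genes 6 were higher and 3 lower, beside 9.66% higher and 19% lower over all tested genes. After the correction 1 gene of each list was called, and both were higher. Scaling to the same median turned these counts to 6 and 3 and to 9 and 0, beside 1828 and 934 of the 10578 tested genes. Among the replication genes, *GINS1*, a part of the replicative helicase, was at 19.3, 24.7 and 20.3 FPKM in siHHEX and at 15.1 and 12.01 FPKM in siYAP/TAZ, with a difference of 0.62 and of 0.93 after the correction (adjusted p = 0.0296).

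Of 32 tested genes of sterol and fatty acid synthesis, 1 was higher in siHHEX and 10 were lower, beside 9.66% higher and 19% lower over all tested genes. Their median was −0.24, and after the correction none was higher, 2 were lower and the median was −0.37. With each library scaled to the same median, 4 were higher, 8 were lower and the median was −0.06. Over all tested genes that scaling gave 1828 higher and 934 lower of 10578. A gene lower after the correction was *HSD17B7*, an enzyme of the pathway that was named after its value was seen, at −0.83 (adjusted p = 0.0349). *ELOVL6*, a fatty acid elongase, and *HMGCS1* had differences of −1.27 and −1.15 that were −0.85 and −0.69 after the correction (adjusted p = 0.0541 and 0.0587). *EBP* was the gene of this list that was higher, by 0.58, and after the correction its difference was 0.22 (adjusted p = 0.382).

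Of 24 tested genes of the ATF4 program of amino acid stress, 9 were higher in siHHEX and 2 were lower, beside 9.66% higher and 19% lower over all tested genes. Their median was 0.39, and after the correction *SHMT2* was the 1 gene called, none was lower and the median was 0.28. *SLC3A2*, the partner chain of *SLC7A5* in the transporter, was at 212, 155 and 164 FPKM in siHHEX, at 102 and 76.5 FPKM in siYAP/TAZ and at 151 and 156 FPKM in siNC, with a log2 difference of 0.98 and of 0.61 after the correction (adjusted p = 0.0807). *SLC38A2*, a transporter of small neutral amino acids in the same program, was lower in siHHEX, at 67.2, 90.6 and 59.96 FPKM against 136 and 162 FPKM, by 1.04 on the log2 scale and by 0.58 after the correction (adjusted p = 0.0584). Its transcript has 37.4% GC, against 57.8% for *SLC3A2*, and whether this bears on their opposite directions was not tested.

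The lists of abundant housekeeping genes moved with the correction. Of 77 cytosolic ribosomal protein genes, 31 were higher and 5 lower in siHHEX, beside 9.66% higher and 19% lower over all tested genes. Their median was 0.29 and became 0.05 after the correction, when 3 were higher and 1 was lower. *RPS2* was at 5680, 5399 and 5756 FPKM in siHHEX and at 3343 and 3440 FPKM in siYAP/TAZ, with siNC at 3459 and 3854 FPKM, and its difference of 0.73 was 0.23 after the correction (adjusted p = 0.150). The genes called after the correction were *RPL9*, *RPL37A* and *RPSA*, which were higher, and *RPL11*, which was lower, all named after their values were seen. Ribosomal protein genes have many processed copies, so their levels are uncertain. Against the same shares, 23 of 61 genes of the respiratory chain were higher and 2 lower, with a median of 0.27 that was 0.10 after the correction, when limma called none at an adjusted p under 0.05, with 11 higher and 1 lower at an unadjusted p under 0.05.

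Of 26 interferon genes 1 was higher and 4 were lower, beside 9.66% higher and 19% lower over all tested genes. With at least 1 FPKM required in all 5 libraries, 18 were left, of which 1 was higher and 1 lower. How many of the others passed the filter only through siYAP/TAZ was not counted. After the correction *IFI35* alone was lower, at −0.80 (adjusted p = 0.0452), a gene named after its value was seen. Of the 9 BMP feedback genes, 0 were higher and 3 were lower in siHHEX, beside the same shares of 9.66% and 19%. *ID1*, an inhibitor of helix-loop-helix factors, was at 153, 138 and 163 FPKM in siHHEX. In siYAP/TAZ *ID1* was at 198 and 195 FPKM, and in siNC at 88.6 and 83.8 FPKM. Both knockdowns were above the control, siYAP/TAZ more so, and the difference of −0.38 was −0.85 after the correction (adjusted p = 0.0184). The endoderm and intestinal factors gave no call with limma among 8 tested, with 0 higher and 1 lower at an unadjusted p under 0.05, whereas median scaling gave 2 higher and 0 lower. Of 31 genes of glycolysis and hypoxia 7 were higher and 5 lower, and median scaling gave 12 higher and 2 lower. Over all tested genes 9.66% were higher and 19% lower, and median scaling gave 1828 higher and 934 lower of 10578. *SLC2A1*, the glucose transporter GLUT1, was at 107, 139 and 123 FPKM in siHHEX, at 79.8 and 47.8 FPKM in siYAP/TAZ and at 184 and 198 FPKM in siNC. *SLC2A1* had a difference of 0.98 that was 0.82 after the correction (adjusted p = 0.0698), when limma called no gene of this list, with 9 higher and 5 lower at an unadjusted p under 0.05. The remaining lists are given beside a share of 9.66% higher and 19% lower over all tested genes. They were Wnt targets (0 higher and 3 lower of 14), Notch genes (3 and 1 of 12), ERK feedback genes (2 and 2 of 22), G1 regulators (3 and 2 of 20), glycosphingolipid synthesis (2 and 2 of 14), lysosomal genes (1 and 4 of 30) and ER chaperones (1 and 5 of 22). Proteasome subunits gave 7 higher and 4 lower of 31, splicing factors 5 and 5 of 39, and genes of translation initiation and tRNA charging 5 and 9 of 30. With each library scaled to the same median, these counts turned to 1 and 0 for Wnt targets, 3 and 0 for Notch genes, 3 and 2 for ERK feedback genes, 4 and 0 for G1 regulators, 2 and 1 for glycosphingolipid synthesis, 2 and 0 for lysosomal genes, 1 and 2 for ER chaperones, 12 and 0 for the proteasome, 10 and 2 for splicing factors and 7 and 0 for translation. These scaled counts stand beside 1828 higher and 934 lower of 10578 under the same scaling, not beside the shares above. After the correction 1 proteasome subunit, *PSMB2*, named after its value was seen, was higher in siHHEX. No member of the other lists in this group was then called.

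**Figure D5:**
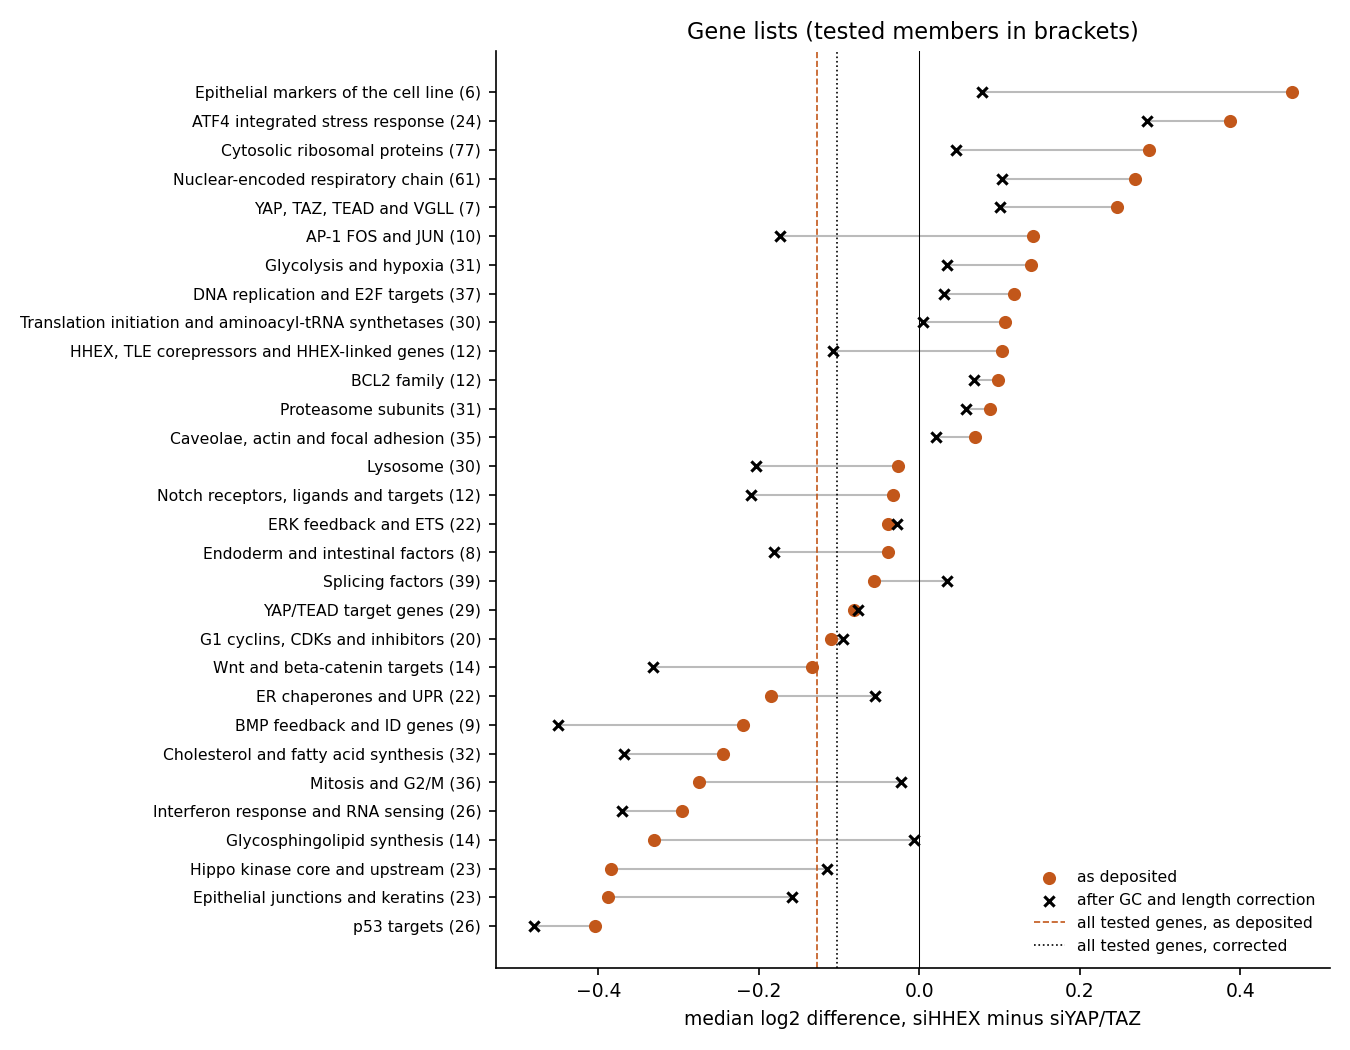
Median log2 difference between siHHEX and siYAP/TAZ (x axis) of each gene list with at least 6 tested members (y axis), as deposited (orange) and corrected for base composition and length (crosses), with vertical lines for the medians of all tested genes. The p53 targets are at −0.40 and move to −0.48, and the ribosomal protein genes move from 0.29 to 0.05.

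In some genes the knockdowns lay on opposite sides of the control. Both siNC libraries fell between the groups in 495 of the 1022 genes higher in siHHEX and in 868 of the 2010 genes lower. After the correction, the counts with siNC between the groups as deposited were 30 of 59 and 38 of 181. The share over all tested genes was not counted. Since the siHHEX libraries carried a GC trend against siNC, these counts describe the levels as deposited only. Among the genes with the widest gaps on both sides were *CD320*, the receptor for vitamin B12 uptake, at 117, 90.0 and 129 FPKM in siHHEX, 59.0 and 49.4 FPKM in siYAP/TAZ and 73.5 and 74.2 FPKM in siNC, and *ARHGAP12*, a GTPase-activating protein, at 11.1, 13.6 and 13.2 FPKM in siHHEX, 32.1 and 31.9 FPKM in siYAP/TAZ and 19.6 and 18.9 FPKM in siNC. The log2 difference of *CD320* was 1.02 and became 0.52 after the correction (adjusted p = 0.0715). That of *ARHGAP12* was −1.28 and became −0.82 (adjusted p = 0.0361). *OR51B4*, an olfactory receptor gene, was at 2.25, 3.13 and 3.06 FPKM in siHHEX, 6.72 and 9.37 FPKM in siYAP/TAZ and 4.18 and 5.24 FPKM in siNC, with a difference of −1.24 and of −1.25 after the correction (adjusted p = 0.0257).

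The libraries of a knockdown were not alike. Across the tested genes, Pearson's r on log2(FPKM + 1) was between 0.980 and 0.988 for pairs of siHHEX libraries, 0.984 for the siYAP/TAZ pair and between 0.949 and 0.979 for pairs across the knockdowns. The number of genes over 2-fold apart was 43 between siHHEX 1 and 2, 135 between siHHEX 2 and 3 and 73 between the siYAP/TAZ libraries. Across the knockdowns it ran from 129, between siHHEX 2 and siYAP/TAZ 1, to 1004, between siHHEX 3 and siYAP/TAZ 2. The library with the lowest *HHEX*, siHHEX 3, was the one farthest from siYAP/TAZ and had the steepest GC trend, whereas siHHEX 2, with *YAP1* near the control, was the closest.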

How the data were processed

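RNA was isolated with Trizol and sequenced on a HiSeq machine, and each gene of a library has 1 deposited value, in FPKM. The submitters' processing notes name Trimmomatic 0.36, HISAT2 2.0.5, Cufflinks 2.2.1 and HTSeq 0.9.1. The genome build and annotation behind the FPKM values are not given in the sources used here. Counts of reads were not used, so log2(FPKM + 1) was tested with limma 3.58.1 (R 4.3.3), in place of the DESeq test that the study names, with a trend of the variance on mean level and Benjamini-Hochberg adjustment over the 10578 tested genes, for 3 siHHEX and 2 siYAP/TAZ libraries. The filter removed 9452 of 20030 genes, of which 4007 were listed at 0 in all 5 libraries. Of 27 rows named by a date, 17 were tested and none is named. GC content, transcript length and coordinates came from GENCODE annotation of GRCh38 for 10508 tested genes (99.3%). For the correction, each library was centred on the 5-library mean, a natural spline (4 degrees of freedom) was fitted for GC content and another for log length, and both were subtracted. In simulated data limma recovered 98.5% of 200 genes changed by 1 on the log2 scale, with 15 false calls. Those data had independent noise and no GC trend, and the changed genes had a mean log2(FPKM + 1) above 1. The figures therefore do not carry over to the deposited values.

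Genes were named by rule: the targeted genes, the 12 highest and 12 lowest without overlap, up to 3 per direction of each of 31 gene lists and any member of the YAP/TEAD and HHEX lists, the 10 highest and lowest after the correction, and those with siNC farthest between the groups. The members and lists were chosen with earlier results of these data known. Other steps used Python 3.11.15, pandas 2.3.3 and matplotlib 3.10.9. Binding, qPCR and protein measurements were not used here. Some results that the naming rule would include are not reported here.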

Additional observations from a re-analysis of the deposited data

How the results depend on the processing

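The counts of genes higher and lower in siHHEX at an adjusted p under 0.05 (1022 and 2010) were 0 and 1 without the filter on low values, 1828 and 934 with median scaling, and 59 and 181 after the GC and length correction. Leaving out 1 library gave between 0 and 1220 higher and between 0 and 2616 lower, and both counts of 0 came without siYAP/TAZ 2, where the lone library is assumed to vary like the siHHEX group. The counts over 2-fold at an unadjusted p under 0.05 (25 and 137) were 48 and 554 with a pseudocount of 0.1, 151 and 39 with median scaling, 4 and 67 after the correction, and between 11 and 102 higher and between 122 and 307 lower when 1 library was left out. The cause of these shifts was not tested. The deviations of same-numbered libraries from their group means had r = −0.0528 and −0.0217. Deviations of the 2 siYAP/TAZ libraries mirror each other, so these values cannot decide whether the numbers pair the libraries. With the replicate number as a block, 351 genes were higher and 685 lower, 11 and 128 over 2-fold, and with the block and the correction 1 and 18 were called, 2 and 100 over 2-fold. Genes that turned direction had not passed the test. *YAP1* ranged from −0.23 (without siHHEX 2) to 0.49 with 1 library left out. *AXL* was −0.10 after the correction, −0.10 without siYAP/TAZ 1, and ranged from −0.34 (without siHHEX 2) to 0.27 with 1 library left out. *CCND1* was 0.11 with median scaling, 0.063 with the block, 0.0496 with the block and the correction, and between −0.41 and 0.25 with 1 library left out, above 0 without siHHEX 3 or siYAP/TAZ 1. *TLE1* was 0.14 with median scaling and between −0.065 and 0.0406 with 1 library left out, above 0 without siHHEX 1 or siYAP/TAZ 1. After the correction, *AES* was −0.0501 (−0.12 with the block), *TEAD2* −0.11 (−0.0553 with the block) and *TEAD3* −0.15 (−0.15 with the block). The number of reads is unknown, which limits what can be said of genes near 1 FPKM.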

Other observations

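The siTEAD1/2/3/4 knockdown was sequenced in 1 library, so its values have no replicate error and no test. In it *TEAD1* was at 9.02 FPKM, *TEAD4* at 5.56 FPKM, *WWTR1* at 6.84 FPKM, *YAP1* at 22.6 FPKM and *HHEX* at 7.75 FPKM. *F3* was at 9.93 FPKM, below the means of siYAP/TAZ (10.8 FPKM) and siHHEX (19.6 FPKM). *TNFRSF12A* was at 172 FPKM and *BCL2L1* at 50.02 FPKM, in both cases between the siYAP/TAZ mean (92.0 and 38.4 FPKM) and the siHHEX mean (268 and 77.4 FPKM). *KRT8*, at 1341 FPKM, lay nearer to the siHHEX mean of 1691 FPKM than to the siYAP/TAZ mean of 898 FPKM. *HIST1H2BD* was at 0.833 FPKM, below both means (2.34 and 7.81 FPKM) and near the siNC mean of 0.637 FPKM. On log2(FPKM + 1), the siTEAD1/2/3/4 value was nearer to the siYAP/TAZ mean than to the siHHEX mean in 6533 of 10578 tested genes (61.8%). The same held for 15 of the 25 genes over 2-fold higher in siHHEX, for 98 of the 137 over 2-fold lower, for 36 of the 59 genes called higher once GC content and length were corrected for, and for 78 of the 181 called lower.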
